A study of Bos taurus with 8 samples.

Results

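The tissue described here is rumen epithelium of Holstein bull calves kept on a high-grain control diet, measured on 4 of the 8 arrays in the series. Of the 15008 probes on the array, 9483 (63.2%) were well above background on all 4 control arrays. These were ranked by their mean brightness over the 4 calves, and the brightest 300 probes, which stand for 293 of 14951 measured genes (1.96%), are described in depth. Brightness chose them, so it is given as a description and not as a test.

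The animals were Holstein bulls with a rumen fistula, 7.4 ± 0.3 months of age and 215.2 ± 20.4 kg in weight (the kind of error is not stated), and the study used 5 of them in a cross-over. Each diet was fed for 14 days with no wash-out. The control diet was rich in grain and contained corn flakes, and the WP diet exchanged part of the corn flakes for wood kraft pulp (WP). Arrays of calves 21, 23, 24 and 25 were analysed here, with 1 array per calf and diet. The labels used here do not say which diet came earlier for a calf. The arrays of the WP diet serve below only as a second measurement of the same calves, and the diets are not compared.

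The rumen wall is lined by a stratified squamous epithelium that keratinises at the lumen yet absorbs most of the short-chain fatty acids made by the microbes. Its basal cells divide and carry most mitochondria. There, butyrate is turned into ketone bodies, and sodium pumps, proton and bicarbonate carriers keep the cell pH while acids cross. High-grain feeding raises the acid load on this tissue, which is why barrier, acid transport and innate defence genes are commonly followed in it.

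A probe on this array is 60 bases long, so closely related genes can share signal. The probes of the keratin genes KRT6B and KRT6C matched at 26 of 30 bases in their most similar stretch, and those of KRT14 and KRT17 at 28 of 30. These stretches are shown because several of the brightest probes belong to these pairs; capitals mark the bases that differ within a pair.
KRT6B: aagtgactGgttctTtgatgtacaggGtCt
KRT6C: aagtgactAgttctAtgatgtacaggAtTt
KRT14: aggatgccgaAgactggttcttCagcaaga
KRT17: aggatgccgaGgactggttcttTagcaaga
The KRT6A probe had no such stretch with either of its relatives: its best match was 13 of 30 bases. Values of KRT6B, KRT6C, KRT14 and KRT17 are therefore those of their probes, and the share of each gene in them is uncertain. A further pair of probes is shown for other reasons. AVP is drawn with its G and C bases in capitals, as 26 of these 30 bases are G or C. GSTO1 is the gene that passed the test between calves.
AVP: GGaGCCCGCGGaGCCCGCCCaGCCCGGCGt
GSTO1: aggcttatgactatggactctgatggggac

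Between 9828 and 10690 probes were well above background on each control array, and no spot was saturated. The 75th percentile of the signal lay between 219 and 334, against a negative control median of 1.54 to 1.61. All 8 arrays lay on 1 slide. The WP array of calf 24 stood apart from the other 7: its E1A control spots had a median signal of 40.7 against 1.36 to 1.97, its negative controls 4.06 against 1.20 to 1.90, and 73 of its spots carried an outlier flag against 2 to 6. It enters the test between calves and the WP values below, and the test is given without it too. Within the control group, calves 24 and 25 sat in row 1 of the slide and calves 21 and 23 in row 2, so between these pairs row and calf cannot be told apart. A level below is log2 of the signal minus the array's 75th percentile. A level of 8 is thus a signal far above most probes, and 0 is the level of the 75th percentile itself. Probe brightness also depends on the probe's own sequence: the 8 probes of GAPDH, the glycolytic enzyme, ranged in mean level from 1.21 to 6.76, and the 4 probes of the ribosomal gene RPL27 from 0.51 to 7.97. The rank therefore orders probes, not transcripts. Each calf gave 1 control array, so the SD over the control arrays also holds the spread of tissue sampling within a calf.

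The 5 marker genes of rumen epithelium were chosen with earlier results of these data known, so their levels describe the tissue and do not test its label. All 5 were well above background on 4 of 4 arrays, and 3 of them, CA1, BSG and KRT5, were among the brightest 300. CA1, a carbonic anhydrase that makes bicarbonate and protons from CO2 (UMD 3.1, chromosome 14, 79530773 to 79530832), had levels of 7.18, 7.0, 6.06 and 6.71 in calves 21, 23, 24 and 25, the order used throughout. For BSG, basigin, which escorts monocarboxylate carriers to the membrane (chromosome 7, 44823476 to 44823535), the same calves gave 5.44, 5.91, 5.75 and 5.55. SLC16A1, the monocarboxylate carrier MCT1 (chromosome 3, 30557485 to 30557544), gave 3.90, 4.25, 4.21 and 4.17. Calf 24 was lowest for CA1, while BSG and SLC16A1 stayed within a narrow band. IL36A, an epithelial cytokine of the interleukin 1 family (chromosome 11, 46572802 to 46572861), read 4.97 in calf 21 and 3.95 to 4.19 in the others. KRT5, the type II keratin of basal cells (chromosome 5, 27547217 to 27547276), read 6.20, 6.63, 6.89 and 6.76. SLC16A1 and IL36A ranked 469 and 425 among the 9483 probes and so fell outside the brightest 300.

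**Figure D1:**
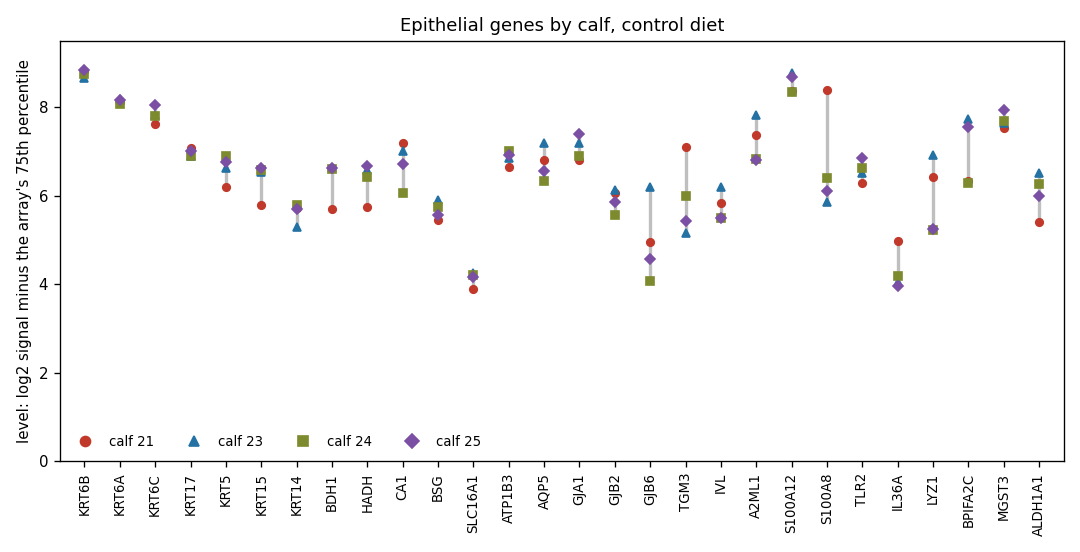
Level (log2 of the signal minus the array's 75th percentile) of 28 epithelial genes on the control arrays, with 1 point per calf and a grey bar from the lowest to the highest calf. KRT6A varied by an SD of 0.06 and S100A8 by 1.16; calf 21 was highest for S100A8 and TGM3 and lowest for BDH1 and HADH.

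Keratins held 7 of the brightest 300 places, or 26.9% of the 26 keratin genes measured, against 1.96% of all genes. KRT6B (chromosome 5, 27583254 to 27583313), a keratin of rapidly renewing stratified epithelium, was the second probe in rank, with levels of 8.82, 8.66, 8.75 and 8.83. Its neighbours in the gene cluster, KRT6A (27563878 to 27563937) and KRT6C (27599593 to 27599652), had mean levels of 8.13 ± 0.06 and 7.82 ± 0.17 (SD, n = 4). The remaining keratins were KRT17 at 6.96 ± 0.09, KRT5, KRT15 at 6.38 ± 0.39 and KRT14 at 5.62 ± 0.22 (SD, n = 4). KRT5, KRT14 and KRT15 mark basal cells, and KRT17 pairs with the KRT6 keratins. For KRT15 the levels were 5.79 in calf 21 and 6.54, 6.57 and 6.63 in the others, so calf 21 stood below. Of the other 19 keratins, 10 were above background on 4 of 4 arrays, 3 on some arrays and 6 on none. Over all 26 keratins the share on all 4 arrays was 65.4%, near the 63.2% of all genes. KRT10, the keratin of cornifying skin, had a level of -0.99 ± 0.86 (SD, n = 4), and KRT4, a keratin of non-cornifying mucosa, was not well above background on any control array.

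Protein synthesis took the largest block. The cytosolic ribosomal proteins held 44 places, 55.7% of the 79 measured. RPS28 had levels of 8.06, 8.28, 8.19 and 8.51, and RPLP1, a protein of the ribosomal stalk, 7.65, 7.83, 7.82 and 8.03. Across the 63 ribosomal protein genes above background on all 4 arrays, calf 25 was highest for 45 and calf 21 lowest for 53. Over all 9483 probes these calves were highest for 2898 and lowest for 3106. The brightest 300 as a whole leaned the same way, with calf 25 highest for 138 and calf 21 lowest for 152. With quantile scaling the ribosomal counts were 31 and 40. At the same time, 13 ribosomal protein genes were not well above background on any control array, although every cell makes these proteins. A dim probe on this array therefore does not show that a transcript is missing.

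Energy metabolism formed the next block. Of the 11 mitochondrially encoded protein genes with a probe, 10 were among the brightest 300; this list was chosen after the values were seen. COX3, a subunit of cytochrome oxidase, was the brightest probe of all at 8.65, 8.81, 8.80 and 9.13, and ND1, a subunit of complex I, read 7.91 ± 0.18 (SD, n = 4). Nuclear genes of the respiratory chain and ATP synthase added 27 of 84 (32.1%). Of the 84, 75 (89.3%) were above background on all 4 arrays, against 63.2% of all genes. Glycolysis added 6 of 27 (22.2%), led by the aldolase gene ALDOA. The enzyme GAPDH read 7.02, 6.5, 6.77 and 6.76 on its brightest probe, and LDHA, the lactate dehydrogenase subunit, 6.13 ± 0.10 (SD, n = 4).

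Ketone body synthesis from butyrate is the hallmark of this epithelium's metabolism, and 5 of the 32 genes of ketone body and short-chain fatty acid metabolism (15.6%) were among the brightest 300. BDH1, which makes 3-hydroxybutyrate from acetoacetate, read 5.70, 6.63, 6.61 and 6.63. HADH, a dehydrogenase of short-chain acyl-CoA oxidation, read 5.74, 6.58, 6.41 and 6.67. Calf 21 was lowest for both genes, and its values lay outside the range of the other calves. ACADS, the acyl-CoA dehydrogenase that acts on butyryl-CoA, had a level of 5.56 ± 0.13, and ACAT1, which joins acetyl-CoA units, 3.75 ± 0.33 (SD, n = 4). OXCT1, which tissues use to burn ketone bodies, lay at -4.18 ± 0.52 (SD, n = 4). Of these 32 genes, 23 (71.9%) were above background on all 4 arrays, against 63.2% of all genes. On none of the arrays were 6, among them the acyl-CoA synthetases ACSS3 and ACSM3, against 25.6% of all genes.

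Transport genes were mixed. Of the carriers and enzymes for acid, bicarbonate and short-chain fatty acids, 4 of 57 (7.02%) were among the brightest 300: CA1, BSG, the sodium-coupled lactate carrier SLC5A12 at 5.43 ± 0.30, and ATP6V0C, a proton pump subunit at 4.84 ± 0.28 (SD, n = 4). SLC26A3, a chloride and bicarbonate exchanger, read 2.99, 4.58, 2.24 and 2.23, highest in calf 23. The carbonic anhydrase CA4 had a level of 0.75 ± 0.60 and CA2 of -4.43 ± 0.60 (SD, n = 4). The fatty acid receptors FFAR2 and FFAR3 were above background on all 4 arrays at -3.86 ± 0.11 and -3.23 ± 0.46 (SD, n = 4). The same held for the sodium and proton exchanger SLC9A3 at -4.02 ± 0.16 and the monocarboxylate carrier SLC16A3 at -3.70 ± 0.57 (SD, n = 4). Among ion transport genes, ATP1B3, the beta 3 subunit of the sodium pump, read 6.85 ± 0.15, and its modulator FXYD3 6.69 ± 0.24 (SD, n = 4). AQP5, a water channel, ranked 81 with 6.81, 7.18, 6.33 and 6.55. SLC14A1, the urea transporter by which blood urea returns to the rumen, read 2.25, 2.30, 2.48 and 3.30, highest in calf 25.

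Barrier genes filled several places. The connexins GJA1, GJB2 and GJB6, which join neighbouring cells by gap junctions, were among the brightest 300. GJA1 read 6.81, 7.18, 6.89 and 7.39, and GJB6 4.94, 6.20, 4.06 and 4.57, with calf 23 far above the rest. The tight junction genes CLDN1, CLDN4 and OCLN were above background on all 4 arrays at 2.36 ± 0.53, 1.21 ± 0.49 and -0.50 ± 0.26 (SD, n = 4). Of 27 measured genes of the cornified envelope and late differentiation, 5 (18.5%) were among the brightest 300. TGM3, the transglutaminase that cross-links the envelope, read 7.11, 5.16, 5.98 and 5.44, highest in calf 21. IVL, the envelope precursor involucrin, read 5.83, 6.19, 5.49 and 5.48. LORICRIN and SPRR3, envelope proteins of skin and of the oral and oesophageal lining, were not well above background on any control array. The protease inhibitors A2ML1 and CST6 read 7.20 ± 0.49 and 5.41 ± 0.16 (SD, n = 4).

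The antimicrobial and pattern recognition list held 1 of its 44 measured genes among the brightest 300 (2.27%), near the 1.96% of all genes. That list does not hold LYZ1 or BPIFA2C, given below and also among the brightest 300, so its share depends on the choice of genes. The list of S100 proteins, annexins and galectins held 6 of 31 (19.4%). Among defence genes, S100A12, a calcium-binding alarmin, ranked 3 of all probes at 8.37, 8.78, 8.33 and 8.68. It is also a neutrophil marker. Of 12 neutrophil and mast cell markers, 2 (S100A12 and HDC) were above background on all 4 arrays, against 63.2% of all genes. A further 5 were so on 1 to 3 arrays. The other 5, including MPO, ELANE and ITGAM, were on none, against 25.6% of all genes. The part of neutrophils in this level was not tested. S100A8, a related alarmin (chromosome 3, 17147825 to 17147884), read 8.39, 5.86, 6.40 and 6.11, with calf 21 far above the others. It is not in the neutrophil and mast cell list, and the part of neutrophils in its level was not tested either. S100A9, picked out afterwards, was not well above background on any control array. TLR2, a receptor for bacterial lipoproteins, ranked 90 at 6.28, 6.52, 6.63 and 6.85. LYZ1, a lysozyme, read 6.41, 6.92, 5.23 and 5.25, so calves 24 and 25 were lower. BPIFA2B and BPIFA2C belong to a family of secreted proteins best known from bovine saliva. BPIFA2C read 6.32, 7.72, 6.29 and 7.54, and BPIFA2B 4.21, 6.31, 4.24 and 5.77, so calves 23 and 25 were above calves 21 and 24 for both. Their probes matched at 13 of 30 bases at most.

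Detoxifying enzymes held 8 of 61 measured places (13.1%). MGST3, a membrane glutathione transferase, ranked 30 at 7.53, 7.64, 7.68 and 7.93. ALDH1A1, which oxidises retinal and other aldehydes, read 5.41, 6.52, 6.25 and 6.0, and UGT1A1, which conjugates bilirubin and drugs, 6.51 ± 0.20 (SD, n = 4). GSTA1, a cytosolic glutathione transferase, read 6.13, 5.85, 5.03 and 5.0, so calves 21 and 23 were above the others. HSD17B13, a lipid droplet enzyme best known from liver, in no list here and picked out after its values were seen, read 6.64, 7.36, 7.17 and 7.35. Among 26 epithelial transcription factors, 1 was in the brightest 300 (3.85%, against 1.96% of all genes). It was SOX2, which marks foregut epithelium, at 5.15 ± 0.23 (SD, n = 4). TP63, the master factor of stratified epithelium, had a level of -0.56 ± 0.31 (SD, n = 4).

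**Figure D2:**
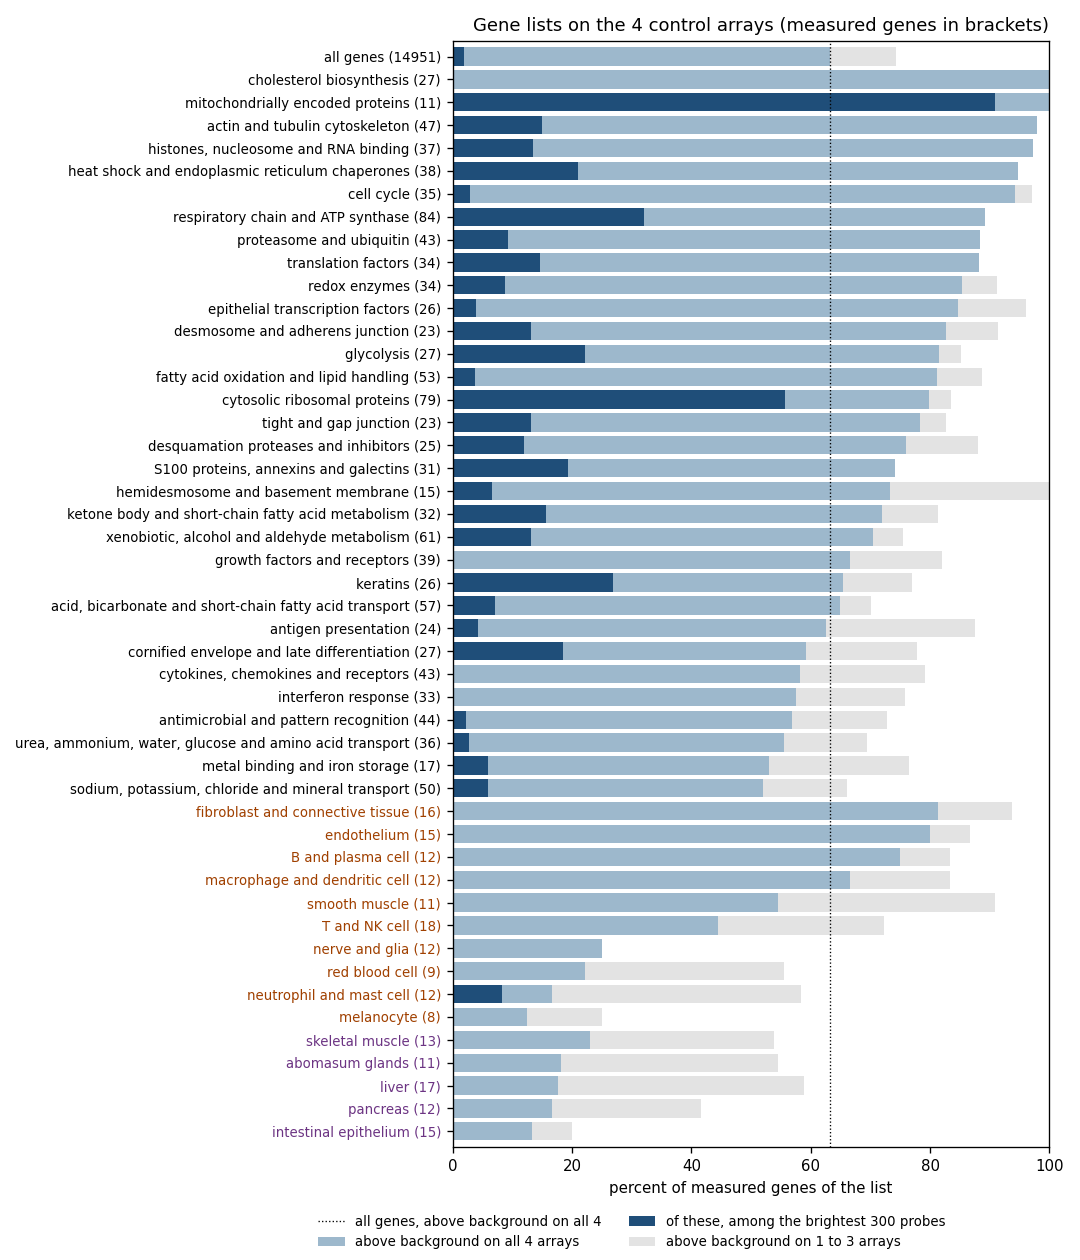
Share of each gene list's measured genes that were well above background on all 4 control arrays (light blue), the share among the brightest 300 probes (dark blue) and the share above background on 1 to 3 arrays (grey); the dotted line marks 63.2%, the share of all genes. Labels are black for gene programmes, brown for other cell types and purple for other tissues; ribosomal proteins reach 55.7% among the brightest 300 and intestinal epithelium 0 of 15.

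In all, 179 of the brightest 300 probes belonged to genes of the 48 lists, 106 to other named genes and 15 to uncharacterised entries. Some of the other named genes are known from nerve or endocrine cells; they were picked out after their values were seen. AVP, the vasopressin precursor, ranked 166 at 5.44, 5.78, 5.72 and 6.03. INHBC, an inhibin subunit, ranked 61 at 7.06 ± 0.07, TH, the enzyme of catecholamine synthesis, 195 at 5.42 ± 0.16, and PHOX2A, a neuronal factor, 220 at 5.27 ± 0.10 (SD, n = 4). The SDs of INHBC, TH and PHOX2A lay below 0.196, the median of the brightest 300, whereas AVP ranged from 5.44 to 6.03. Of 12 nerve and glia markers, 9 were not well above background on any control array, against 25.6% of all genes. The AVP probe is 83.3% G and C, as its sequence above shows, and the probes of PHOX2A, TH and INHBC are 65%, 60% and 55%. Probes above 65% G and C made up 10 of the brightest 300 (3.33%) and 0.853% of all probes, while the median was 45% in both. The part of base composition in these values was not tested.

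Well-known rumen genes that were not detected were looked up in a list of 100, of which 95 had a probe. Of these, 71 were above background on all 4 arrays, 6 on 1 to 3 and 18 on none, against 25.6% of all genes on none. SLC9A2, AQP10, HCAR2, KRT13 and SPRR1A were not measured under those names. The undetected acid and bicarbonate genes included the bicarbonate carriers SLC4A1 and SLC4A4, the anion exchangers SLC26A6 and SLC26A9, the proton pump ATP12A and the carbonic anhydrase CA14. The carriers SLC16A4 and SLC16A7, relatives of MCT1, belonged to the same group, with mean levels of -7.47 and -7.51. Ion channel genes on none of the arrays were CFTR, KCNE1 and TRPV6. The acyl-CoA synthetases ACSS3 and ACSM3, the structural genes KRT4, SPRR3 and LORICRIN and the antibody carrier PIGR also belonged to the 18. ANO1, a chloride channel, and SLC5A8, a butyrate carrier, were above background in calf 21 alone. Since 13 of 79 ribosomal protein genes were also on none of the arrays, these 18 are probes without a usable signal and not genes shown to be silent.

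**Figure D3:**
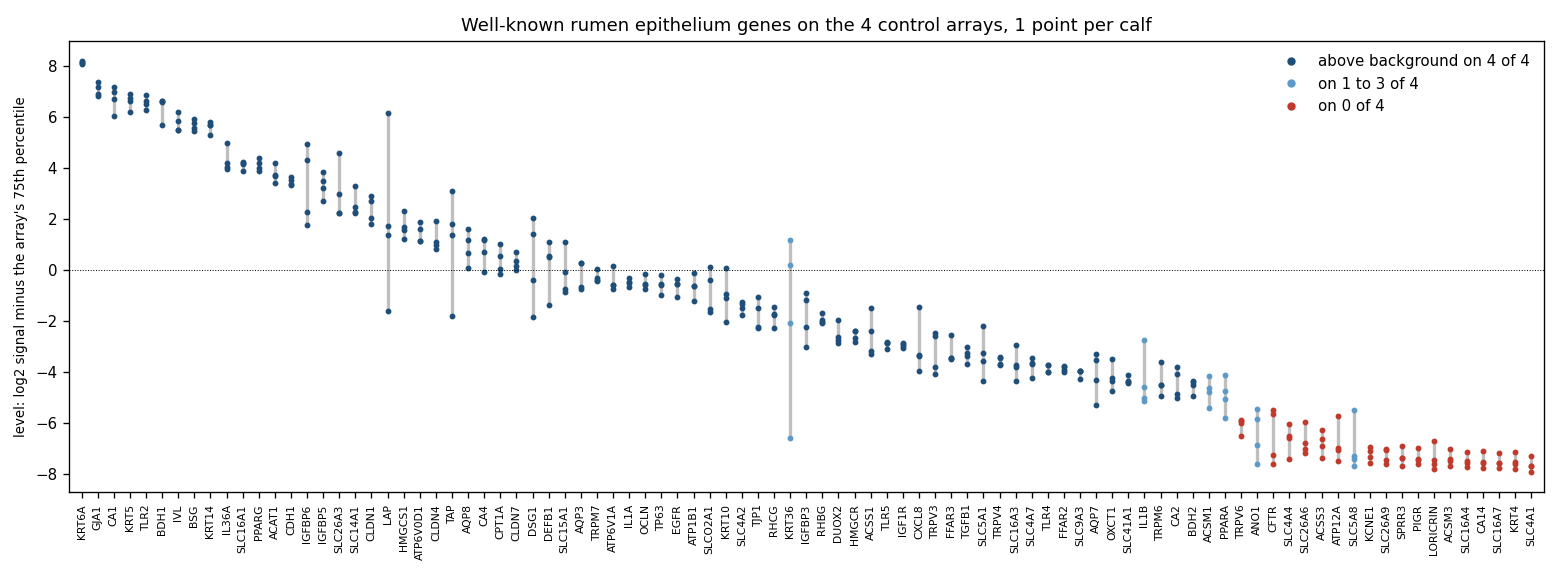
Level of 91 of the 95 well-known rumen epithelium genes on the control arrays, ordered by mean, with 1 point per calf and a grey bar from lowest to highest. Dark blue genes were above background on 4 of 4 arrays (68), light blue on 1 to 3 (6) and red on none (17); LAP, TAP, KRT36, DSG1 and IGFBP6 have the longest bars among the detected genes.

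The 4 calves gave similar profiles. Across the 9483 probes, pairs of control arrays correlated at Pearson's r between 0.978 and 0.990, which is across probes and not across independent samples. The median SD over calves was 0.196 for the brightest 300 and 0.222 for all 9483. An SD over 0.5 was found for 17 of the 300 (5.67%) and 1070 of the 9483 (11.3%). When each calf in turn was left out of the ranking, 274, 275, 285 and 280 of the 300 brightest probes of the other 3 were also in the own brightest 300 of calves 21, 23, 24 and 25. Of the 300, 251 were in the own brightest 300 of all 4 WP arrays as well, and 2 were in none of them. The limit of 300 fell in a dense region: MRPS26, NDUFB9 and ATP6V0C entered at 4.86, 4.85 and 4.84, while PKP1 just missed at 4.84.

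**Figure D4:**
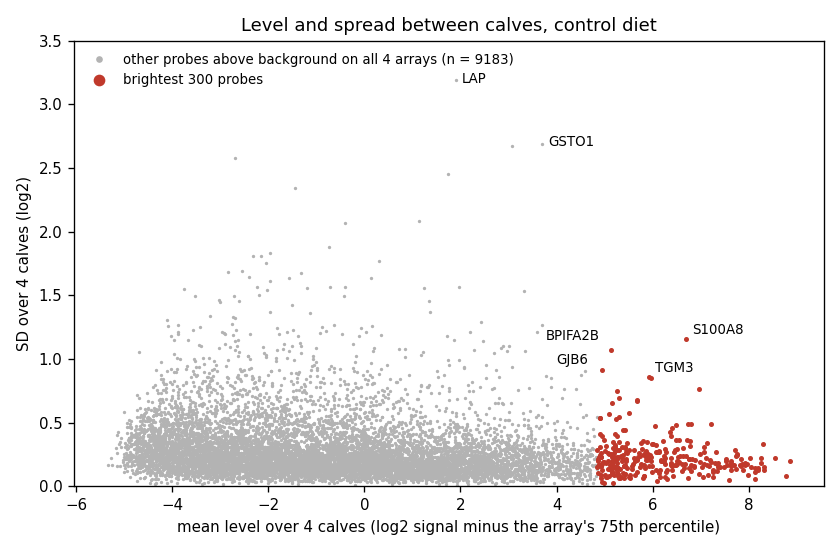
SD over the 4 calves against mean level, both log2, for the 9483 probes above background on all 4 control arrays, with the brightest 300 in red. S100A8 and BPIFA2B are the only red points above an SD of 1; LAP and GSTO1 have the widest spread among the labelled genes.

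The steadiest of the 300 were genes of general cell upkeep and a few epithelial genes. NDUFB7, a complex I subunit, had an SD of 0.02, EIF1AX, a translation initiation factor, 0.03, PCBP1, an RNA-binding protein, 0.04, and AGPAT2, an enzyme of phospholipid synthesis, 0.04. S100A2 and KRT6A followed with 0.05 and 0.06, then YBX1 and ARPC2 with 0.06 each. The 15 with the largest SD were S100A8 (1.16), BPIFA2B (1.07), GJB6 (0.91), TGM3 (0.86), LYZ1 (0.85), BPIFA2C (0.77), TMSB10 (0.75), PRDX6 (0.69), BOLA (0.68), F7 (0.67), CTSA (0.65), GSTA1 (0.57), IGLL1 (0.57), ALAS1 (0.55) and the uncharacterised LOC511106 (0.54). Of these, S100A8, LYZ1, BOLA and IGLL1 belong to immunity, and GJB6, TGM3 and the BPIFA2 genes to the epithelial surface. BOLA, a class I antigen-presenting molecule whose relatives are nearly identical, read 6.36, 4.79, 6.01 and 5.49. PRDX6, a peroxidase, read 6.24, 5.38, 4.94 and 4.65, and F7, coagulation factor VII, 5.65, 6.43, 4.81 and 5.78.

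On its control array, calf 21 was the highest calf for most genes of several lists, though not of every immune list. Described here are 4 of them: antigen presentation, macrophage and dendritic cell, T and NK cell, and fibroblast. Others were antimicrobial and pattern recognition (14 of 25) and cytokines, chemokines and receptors (13 of 25). Lists of other functions also showed it: proteasome and ubiquitin (22 of 38), cholesterol biosynthesis (15 of 27) and glycolysis (13 of 22). Over all 9483 probes, calf 21 was highest for 2284. Of 15 antigen presentation genes above background on all 4 arrays, 13 were highest in calf 21. Their median deviation from the gene means was 0.69 in calf 21, against -0.02 over all 9483 probes. The macrophage and dendritic cell markers gave a median deviation of 0.82 (6 of 8 highest in calf 21), and the T and NK cell markers 0.59 (7 of 8). The fibroblast markers gave 0.72 (11 of 13), and the summed signal of all 16, in units of the array's 75th percentile, came to 53.5, 18.6, 28.2 and 14.2. For the macrophage and dendritic cell markers the sums were 28.5, 35.3, 10.6 and 8.69, of which LYZ2 was the brightest member. T and NK cell sums were 4.09, 2.34, 2.02 and 1.70. CD4, CD8B, GZMA, GNLY and PRF1 were not well above background on any control array, nor were ITGAM and MARCO of the macrophage list or PDGFRB of the fibroblast list. With normexp, quantile or median scaling or the authors' value table, calf 21 kept a positive median deviation in these 4 lists, from 0.35 upwards. With normexp, however, calf 21 was highest for only 4 of 8 T and NK cell and 4 of 8 macrophage and dendritic cell markers. The B and plasma cell markers as a list did not share the pattern, with a median deviation of -0.06 and 3 of 9 highest in calf 21. IGLL1, an immunoglobulin lambda-like gene outside that list, was highest in calf 21, at 5.93, 4.78, 4.88 and 4.76 on the control arrays. The 2 neutrophil and mast cell markers on all 4 arrays gave -0.68, and neither was highest in calf 21. S100A8, which is not in that list, was highest in calf 21. Calf 23, which shared the slide row of calf 21, had medians of -0.08, -0.15, -0.21 and -0.43 in the same order.

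Single genes followed the same calf. LAP and TAP, the lingual and tracheal antimicrobial peptides, read 6.14 and 3.12 in calf 21, -1.59 and -1.79 in calf 23, 1.39 in calf 24 for both, and 1.72 and 1.80 in calf 25. PI3, the protease inhibitor elafin, which was picked out after its values were seen, read 5.22, -0.52, 1.41 and 0.87. The chemokine CXCL8 read -1.44, -3.95, -3.38 and -3.32. COL3A1, a fibrillar collagen, read 4.28, 2.55, 2.88 and 1.67, and CSF1R, the macrophage growth factor receptor, 1.64, 0.60, 0.36 and -0.68. Calf 21 was the highest of the 4 for each of these genes, but none passed the test between calves described next (limma adjusted p = 0.932 for LAP and TAP and 0.976 for PI3). S100A8 and TGM3 did not pass either (0.932 and 0.943). On the control array of calf 21, ribosomal protein genes, BDH1 and HADH were low at the same time. On the WP arrays LAP read 0.54, -1.37, -1.44 and -0.16, lower in calf 21 than on its control array but still highest there. TAP read -4.82, -2.63, -1.46 and 0.12 and PI3 -4.53, -1.19, -1.81 and 1.56, both lowest in calf 21. The median deviation of calf 21 on the WP arrays was -0.06 for the antigen presentation list. It was -0.44 for the macrophage and dendritic cell, -0.07 for the T and NK cell and -0.35 for the fibroblast markers. The WP array of calf 24, which stood apart in its control spots, enters these gene means. Its own medians were 0.21, 0.42, 0.28 and 0.55 in the same order. Calf 23 gave 0.13, -0.11, -0.17 and -0.08, and calf 25 gave -0.21, 0.17, -0.18 and -0.09. Calf 21 thus lay above both for the T and NK cell markers, and below both for the macrophage and dendritic cell and the fibroblast markers. The control array of calf 21 also had the most probes above background (10690) and the highest 75th percentile (334). In bulk tissue, more cells of a type and more RNA per cell cannot be told apart. The part of other cell types or of array brightness in these levels was not tested.

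Differences between calves were tested over all 8 arrays with limma, as a moderated F-test of the calf term beside a diet term. Of 10194 probes tested, 1 passed an adjusted p of 0.05 (0.00981%), and 509 (4.99%) had an unadjusted p under 0.05. That probe was GSTO1, glutathione transferase omega 1 (UMD 3.1, chromosome 26, 25097625 to 25097684), which was not among the brightest 300. On the control arrays it read 5.41, 4.5, 5.18 and -0.29 in calves 21, 23, 24 and 25, a signal 52.2 times as high in calf 21 as in calf 25. On the WP arrays the same calves read 5.26, 4.61, 5.15 and -0.54. Calf 25 was apart on both of its arrays, and GSTO1 stayed well above background on all 8 (limma F-test, adjusted p = 0.00836). The adjusted p was 0.899 without calf 25, 0.0594 without calf 21, 0.0515 without the WP array of calf 24, 0.0954 with slide row as a term and 0.106 with no filter on dim probes, and lay between 6.12e-06 (normexp) and 0.0439 (without calf 23) under the other alternatives. Which part of the transcript the probe covers was not analysed here.

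**Figure D5:**
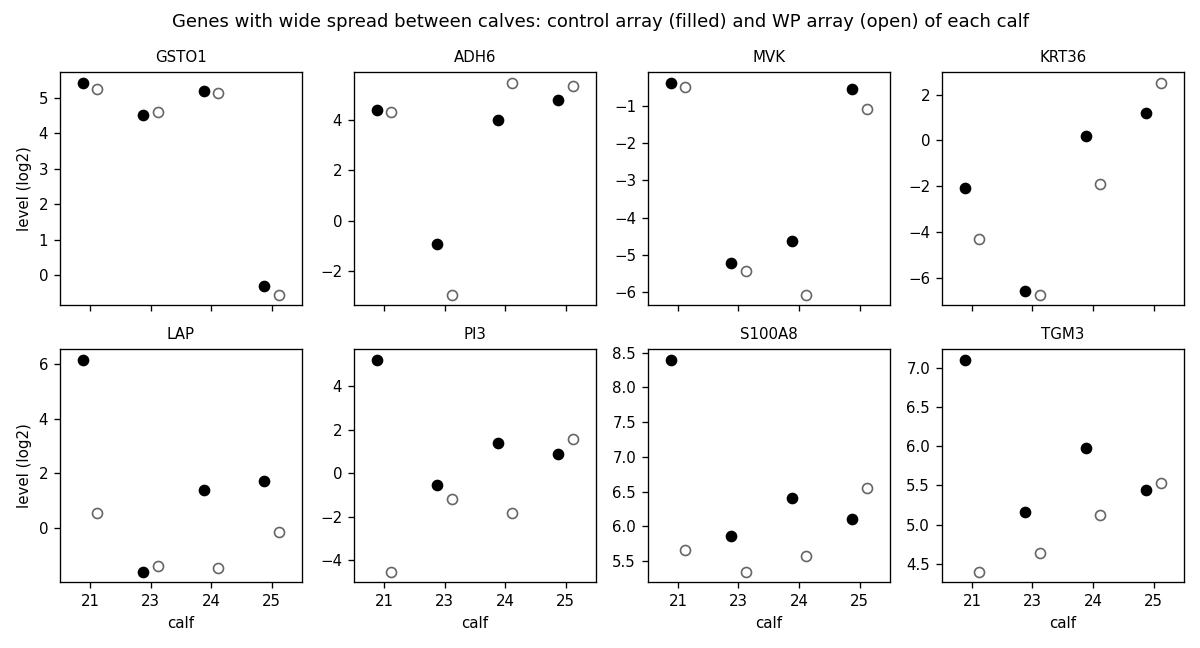
Level (log2) of 8 genes with wide spread between calves, with the control array of each calf as a filled point and its WP array as an open point. GSTO1 is low in calf 25, ADH6 and KRT36 in calf 23 and MVK in calves 23 and 24 on both arrays, whereas LAP, PI3, S100A8 and TGM3 are highest on the control array of calf 21.

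None of the brightest 300 passed: 0 were called in limma at an adjusted p of 0.05, 8 (2.67%) had an unadjusted p under 0.05, and the smallest adjusted p was 0.634, for HSPA1A, an inducible heat shock protein (5.13, 5.59, 5.50 and 4.68 on the control arrays). With 3 residual degrees of freedom, smaller differences between calves cannot be separated from the spread within a calf. Across all probes, 74 differed by more than 4 log2 units between the highest and the lowest calf on the control arrays. ADH6, an alcohol dehydrogenase, was lowest in calf 23 on both of its arrays: it read 4.38, -0.92, 4.01 and 4.78 on the control arrays and 4.30, -2.95, 5.47 and 5.37 on the WP arrays (limma adjusted p = 0.380). KRT36, a hair-type keratin, read -2.08, -6.59, 0.20 and 1.20 on the control arrays, and in calf 23 it was not well above background (adjusted p = 0.380). MVK, mevalonate kinase of cholesterol synthesis, read -0.39, -5.20, -4.62 and -0.55 and did not pass either (adjusted p = 0.0936). ADH6 passed with normexp, and MVK with normexp, with a trended and robust prior and without calf 24. Both were picked out after their values were seen.

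Markers of other tissues were mostly dim. Of 15 intestinal epithelium markers, 12 were not well above background on any control array, against 25.6% of all genes. The same held for 6 of 8 melanocyte, 7 of 12 pancreas, 5 of 11 abomasum and 7 of 17 liver markers. Of the vessel, fibroblast and smooth muscle markers, 12 of 15, 13 of 16 and 6 of 11 were above background on all 4 arrays, against 63.2% of all genes. Summed signals of the endothelial markers were 7.68, 5.01, 8.90 and 6.69, lowest in calf 23, which was also lowest as a median over the cell cycle genes (-0.43, n = 33). HBA, alpha haemoglobin, read 2.77 ± 0.20 (SD, n = 4), whereas HBB, beta haemoglobin, picked out afterwards, was not well above background on any control array.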

How the data were processed

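Spot intensity was deposited by the authors as scanner output of Agilent Feature Extraction (version 11.0.1.1 per the file headers, 9.5 per the submitters' processing notes), with a processed signal already corrected for background. Per the labels' protocols, Cy3 was the only dye and 500 ng of total RNA went into each labelling. The value table that the authors deposited is on the log2 scale and equals the scanner's log2 signal minus a constant per array (slopes of 1.00), so its scale and direction are known. It served as an alternative.

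Outlier spots were dropped, spots of 1 probe were averaged, and the array's 75th percentile was subtracted on the log2 scale. A gene is shown by its brightest probe. Probes were named through RefSeq (ARS-UCD2.0, names only): 11557 by accession, 2737 by symbol, 37 by an older symbol, 618 kept the array design's name and 59 kept it because RefSeq's is a placeholder. Positions are the array design's, on UMD 3.1. Exons and UTRs were not looked up. The test between calves used limma 3.58.1 (R 4.3.3), adjusted by Benjamini-Hochberg over 10194 probes above background on at least 4 of 8 arrays; the fit was tested on simulated data. The number of arrays limits the precision.

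The members and the 48 lists (1476 genes, 1358 with a probe) were chosen with earlier results of these data known. Genes were named by rule: the given markers, the 30 brightest, the 15 largest and 8 smallest SDs, leading list members, rumen list genes and the calf test's call. A few genes that the rule covers are not reported here. Any other gene is said to be picked out after its values were seen. Alternatives covered background correction, scaling, the value table, detection rules, model terms and each calf left out; leaving out the WP array of calf 24, whose control spots were bright, was chosen after seeing the data.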

Additional observations from a re-analysis of the deposited data

Results flagged for a closer look

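On 4 control arrays, a calf can stand apart from the other 3 by more than Dixon's 95% limit, which chance alone reaches in about 5% of genes. This was met by 13 of the 133 genes given with values (9.77%); some of these genes were named for their wide spread. Calf 21 stood apart for BDH1 (5.70), KRT15 (5.79), IGLL1 (5.93) and the macrophage marker AIF1 (2.0), being low in BDH1 and KRT15 and high in IGLL1 and AIF1. Calf 23 was apart for CTSA, a lysosomal protease (6.13, high), ADH6 (-0.92, low) and the interferon-induced IFI47 (-7.64, low). In that calf IFI47 was not well above background, so the size of its gap is uncertain. Calf 24 was apart for SLC9A3 (-4.27, low), where the other 3 calves were nearly equal. Calf 25 was apart for GSTO1 (-0.29, low), FFAR3 (-2.54, high) and the plasma protein genes ALB (-0.57), APOH (-1.71) and FGG (-1.73), each high. ADH6, IFI47 and the plasma protein genes were picked out after their values were seen.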

How the results depend on the processing

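The 9483 probes above background on all 4 control arrays became 11451 with the scanner's weaker detection flag, 9966 with 3 of 4 arrays and 9485 with outlier spots kept. Between 292 and 300 of the brightest 300 were shared under other corrections, scalings or values or with a calf left out. Their median SD was 0.169 to 0.198 under other corrections, scalings or values. It was 0.153, 0.192, 0.211 and 0.188 without calves 21, 23, 24 and 25. The counts of list members among the brightest probes stayed within 1.5 times in 105 of 105 comparisons with normexp or a calf left out. They moved further for 12 of 21 lists with the brightest 150 and for 10 of 21 with the brightest 600. The number of probes that differ between calves was 19 with normexp, 17 with a trended and robust prior, 2 with probes above background on all 8 arrays, 2 with no diet term, 0 with no filter, 0 with slide row as a term and 0 without the WP array of calf 24. Leaving out a calf gave 0 to 2. No paired analysis was possible because the calf number is itself the term tested and the diets are not compared. Dim probes near background limit what can be said of absent genes.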

Other observations

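The plasma protein genes ALB, FGG, APOH and GC, made by liver, were above background on the control array of calf 25 alone, at levels of -0.57, -1.73, -1.71 and -1.85. On the other 3 control arrays they lay between -7.85 and -6.30. On the WP array of calf 25 they read -3.08, -4.14, -3.63 and -3.98, and on that of calf 24, which stands apart in its control spots, -5.54, -3.61, -4.41 and -6.28. FGG was thus higher in calf 24 than in calf 25 there. The liver genes FGB, SERPINA1, APOB, FGA and HP were not well above background on any control array. These genes were picked out after their values were seen.

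The class II antigen genes BOLA-DQA5 and BOLA-DQB, which belong to a highly variable family whose copies differ between animals, were above background in calves 21 and 25 and in neither of the other calves. In the order 21, 23, 24 and 25, BOLA-DQA5 read 0.03, -7.71, -7.64 and -1.94, and BOLA-DQB 0.15, -7.59, -7.46 and -1.76. On the WP arrays BOLA-DQA5 read -1.43, -6.88, -6.34 and -0.96. Neither gene passed the test between calves (limma adjusted p = 0.257 and 0.491), but BOLA-DQA5 did with a trended and robust prior. GSTA2, a glutathione transferase, read -7.95, 1.74, -0.16 and -0.49 and was not well above background in calf 21 (limma adjusted p = 0.491), and it passed without calf 23. BOLA-DQA5, BOLA-DQB and GSTA2 were picked out after their values were seen.

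IGFBP6, which binds insulin-like growth factors, read 2.28, 1.78, 4.33 and 4.93 on the control arrays. DSG1, a desmosomal cadherin of upper layers, read -1.84, -0.40, 1.42 and 2.06. Calves 21 and 23 shared slide row 2 there, and calves 24 and 25 row 1. On the WP arrays calves 21, 23, 24 and 25 read 3.81, 4.31, 2.21 and 2.92 for IGFBP6 and -0.01, 0.88, -2.30 and 1.24 for DSG1. There the arrays of calves 21 and 23 lay in row 1 and those of calves 24 and 25 in row 2. The part of slide row in these levels was not tested.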
